A study of Schizosaccharomyces pombe with 13 samples.

Results

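Antisense signal, reads from the strand opposite to an annotated gene, was compared between deletion strains and wild type of the fission yeast Schizosaccharomyces pombe. The genes described are the 1045 entries of the authors' deposited antisense table whose identifier is not that of a noncoding RNA (SPNCRNA) and also occurs in the authors' deposited sense table. They are 1045 of the 1561 entries of the antisense table, beside 509 SPNCRNA entries and 7 genes that the sense table does not list, and they make up 20.5% of the sense entries outside SPNCRNA. The reference annotation calls 1039 of them protein coding and 4 pseudogenes, and 2 have no reference entry.

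RNA of 13 libraries was sequenced: 4 of wild type (h+), 3 of a xap5 deletion (Bioneer BG4186, SPCC1020.12c replaced by KanMX4, h+), 3 of a pht1 deletion (SPBC11B10.10c replaced by NatMX4, h-) and 3 of the double deletion (h-). All 4 strains have the ED668 background with ade6-M216, ura4-D18 and leu1-32, and were grown overnight in YES at 30 °C, then in EMM50 at 37 °C, and collected as exponentially growing haploid cells. Libraries were strand-specific, randomly primed and depleted of ribosomal RNA, with single reads of 100 bases from 2 lanes averaging 11.8 M reads in each library as stated. The labels do not say whether the replicates came from separate cultures, so the deposited p-values reflect only how far the libraries of a strain differ, in part perhaps for technical reasons. By the stated labels, the pht1 and double deletions also differ from wild type in mating type, and these differences cannot be told apart. The sense signal of the mating-type gene mat1-Mc did not follow these labels. Against wild type, its deposited log2 fold was -4.27 for the xap5 deletion, which has the same label as wild type. It was 0.16 (deposited adjusted p = 0.694) with only pht1 deleted and 0.84 (deposited adjusted p = 0.00182) with both genes deleted. Which mating type each strain had was not tested.

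The authors' deposited tables hold, for each deletion against wild type, a log2 fold and an adjusted p-value per gene, without values per library or errors. Every fold and adjusted p below comes from these authors' deposited tables, and higher or lower means a deposited adjusted p under 0.05. The header of the antisense table states that it lists changes at p under 0.01, and each of the 1045 genes has an adjusted p under 0.01 in at least 1 comparison. Their antisense calls therefore describe a list chosen on antisense signal. The weakest entries were spo7 (smallest adjusted p 0.00999 in the authors' deposited table), sec74 (0.00996) and pik3 (0.00996), and nothing lies just outside, since the table stops there. In the same deposited comparisons the sense fold of xap5 was -3.11 in its own deletion and -2.11 in the double deletion, and that of pht1 was -2.13 and -1.55, while each was not called in the other single deletion (0.33 for xap5, -0.03 for pht1).

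Antisense RNA arises when transcription starts within or beyond a gene on the opposite strand, or when a convergent neighbour is read past its end. Fission yeast limits it with chromatin factors and with RNA decay by the nuclear exosome, and H2A.Z, the histone variant encoded by pht1 and placed by the Swr1 complex, is known for suppressing antisense transcripts together with heterochromatin and RNA interference factors. The xap5 gene encodes the XAP5 family protein of this yeast, a chromatin-associated factor conserved from yeast to plants and animals.

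A convergent neighbour, one that ends facing the gene's own end, lies beyond 52.8% of the listed genes, against 55.4% of the genes that are not listed. The sequences between the annotated ends of 7 such pairs are shown because they are the spans that a read-through transcript of the neighbour must cross to become antisense to the gene. Each was read from the RefSeq assembly ASM294v3, runs 5′ to 3′ on the strand of the first gene, and starts at the base after its annotated end. Capitals mark AATAAA, the textbook polyadenylation signal, or TTTATT, which is AATAAA on the other strand.

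vma7 to isa2, II:4021108-4021129, minus strand: acacttttatatttgtatcttt
SPAC1B3.02c to min8, I:4928139-4928171, minus strand: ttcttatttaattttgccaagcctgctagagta
hsp90 to rlc1, I:3888498-3888557, minus strand: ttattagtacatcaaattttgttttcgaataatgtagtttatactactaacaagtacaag
chr4 to nop16, II:4381324-4381385, minus strand: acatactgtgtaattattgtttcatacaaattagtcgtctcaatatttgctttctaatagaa
pht1 to cdc2, II:1502096-1502202, minus strand: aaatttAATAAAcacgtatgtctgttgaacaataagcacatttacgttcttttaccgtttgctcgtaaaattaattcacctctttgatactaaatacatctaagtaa
duc1 to SPCC594.02c, III:357774-357952, plus strand: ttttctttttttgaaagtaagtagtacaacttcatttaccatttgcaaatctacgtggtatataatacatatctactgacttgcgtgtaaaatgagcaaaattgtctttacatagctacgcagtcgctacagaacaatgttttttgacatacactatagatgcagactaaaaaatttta
bud6 to SPAC15E1.02c, I:3720964-3721256, plus strand: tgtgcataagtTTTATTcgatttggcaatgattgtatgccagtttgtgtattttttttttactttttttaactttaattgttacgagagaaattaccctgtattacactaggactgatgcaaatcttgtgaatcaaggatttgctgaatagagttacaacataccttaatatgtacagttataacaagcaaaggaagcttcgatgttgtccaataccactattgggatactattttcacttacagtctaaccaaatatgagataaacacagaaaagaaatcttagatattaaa

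AATAAA was found on either strand in 2 of these 7 sequences, those of pht1 and bud6. Over all 347 convergent gaps of 1 to 300 bases between neighbouring protein-coding genes of the reference, 98 (28.2%) hold it, and over the 143 with a listed gene on at least 1 side, 42 (29.4%) do. The gap beyond bud6 also holds part of an annotated noncoding RNA, SPNCRNA.3662, and the other 6 overlap no annotated gene. The letters are those of the reference, and the deposited tables name the earlier annotation EF2.12.

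Antisense signal was mostly higher in the deletion strains, and the double deletion held the most calls and the highest median fold. According to the authors' deposited table, antisense was higher at 233 genes (22.3%) in the xap5 deletion, 435 (41.6%) in cells lacking pht1 alone and 799 (76.5%) in the double deletion. The matching shares of all 1561 listed antisense entries were 33%, 42.6% and 76.7%. Lower antisense signal was called at 8 genes (0.766%) in the xap5 deletion, 50 (4.78%) in cells lacking pht1 alone and 107 (10.2%) in the double deletion, against 1.6%, 3.78% and 9.55% of all listed entries. At the stricter adjusted p under 0.01, which each listed gene passes in at least 1 comparison, antisense was higher at 156, 331 and 764 genes, beside 24.6%, 31.6% and 73.2% of all entries. It was lower at 4, 35 and 100 genes, beside 1.02%, 2.63% and 8.78%. The median deposited antisense log2 fold of the 1045 genes was 0.70, 0.93 and 1.53 in the deletions of xap5, pht1 and both, and 11, 7 and 84 genes were higher by at least 3.

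The highest antisense fold of any listed gene was that of hsp3102, a ThiJ domain protein, at 7.05 in the xap5 deletion (adjusted p = 1.08e-11 in the authors' deposited table). Its antisense folds of 2.44 in cells lacking pht1 alone and 2.99 in the double deletion were lower, while its sense fold was largest in the double deletion, at 5.81 against 2.93 and 1.93. The cell surface glycoprotein gene pfl8 led the double deletion with an antisense fold of 5.71, after 4.64 in the xap5 and 4.13 in the pht1 deletion, all called. Its sense fold was near 0 in both single deletions (0.03 and 0.05, not called) and fell by 1.18 in the double deletion (adjusted p = 2.77e-07 in the authors' deposited table). The sense strand of hsp3102 was thus higher and that of pfl8 lower in the double deletion.

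The gene ost3, for a subunit of the oligosaccharyltransferase that attaches sugars to proteins, had the highest antisense fold of the pht1 deletion, 4.32, with 3.40 in the xap5 deletion and 3.13 in the double deletion. Its adjusted p in the authors' deposited table was 0.0207, 0.000418 and 0.0232 in the deletions of xap5, pht1 and both. The amino acid transporter gene SPBC1652.02 followed in the pht1 deletion at 4.13, level with pfl8, then the truncated telomeric helicase SPAC212.06c at 3.65, which has a near-identical copy elsewhere and is uncertain for that reason. The deposited folds of SPBC1652.02 and pfl8 are identical (4.13019), as are those of ost3 and the orphan SPBPB21E7.11 in the xap5 deletion (3.39515). Read counts are not given, and whether such high folds rest on few reads was not tested. For vma7, a subunit of the vacuolar proton pump, the deposited antisense fold was 3.34 in cells lacking pht1 alone and 2.50 in the double deletion, both called, and 1.04 in the xap5 deletion, not called. For tum1, which acts in tRNA thiolation, it was 2.80 and 1.37, both called, and 0.85. The listed antisense signal of vma7, ost3 and tum1 was thus larger in the pht1 deletion than in the double deletion.

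In the xap5 deletion, hsp3102 and pfl8 were followed in the authors' deposited table by mug20, which encodes a protein of meiotic chromosome axes, at 4.44, and by SPCC1020.13c, a predicted phospholipase, at 4.21. SPCC1020.13c lies upstream of xap5 on the same strand, and their annotated transcripts overlap by 41 bases. Its antisense fold was 5.08 in the double deletion, where xap5 is also replaced, and 1.85 in the pht1 deletion, where it is not (adjusted p = 9.63e-10 in the authors' deposited table). Its sense fold was -0.14, 0.34 and 0.15, called in the pht1 deletion alone. How much of the antisense signal comes from the inserted cassette was not tested. At the other deleted locus, pht1 had deposited antisense folds of 0.43, 2.00 and 4.05, and its convergent neighbour cdc2, which encodes the main cyclin-dependent kinase, had 0.06, 1.64 and 1.80, with the pht1 and double deletions called in both genes.

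In the double deletion, pfl8 was followed in the authors' deposited table by the dubious gene SPAC343.20 (5.56), the orphan SPCC191.10 (5.51), duc1 (5.47), SPBC1685.04 (5.22), the autophagy gene atg38 (5.12), SPCC1020.13c (5.08) and mug9 (4.95). The gene duc1, whose listed family is DUF1769, had 0.97 (not called) in the xap5 deletion, 3.08 in cells lacking pht1 alone and 5.47 with both deleted. Its neighbour pil1, which encodes a core protein of plasma membrane eisosomes, lies upstream on the same strand and had deposited antisense folds of 0.28 (not called), 2.64 and 4.18, the same order.

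**Figure D1:**
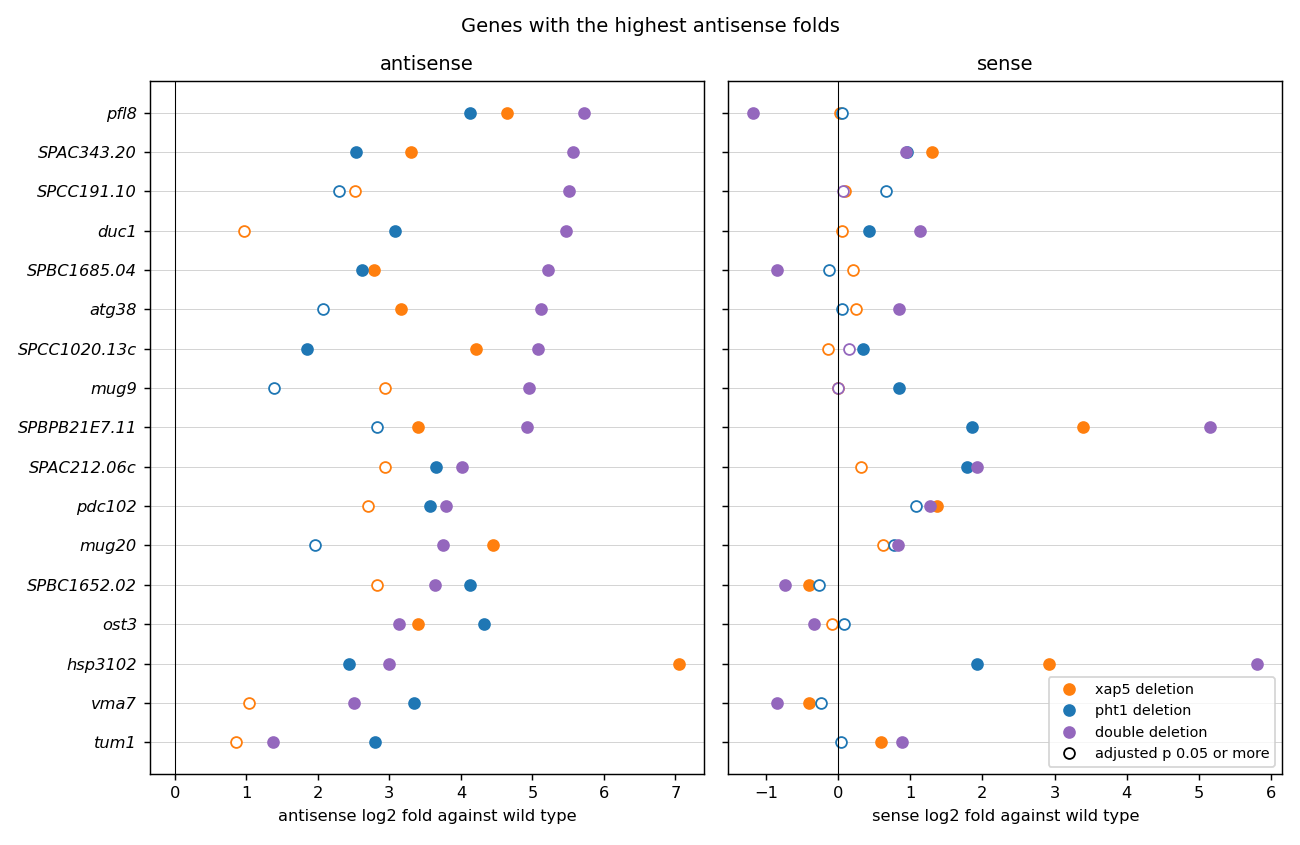
Deposited antisense (left) and sense (right) log2 folds of the 17 genes with the 8 highest antisense folds of each comparison, coloured by deletion strain, with open points for adjusted p of 0.05 or more. All antisense points lie above 0, up to 7.05 for hsp3102, while the sense points run from -1.18 for pfl8 to 5.81 for hsp3102 in the double deletion. The number of reads behind each fold is not known.

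Of the 799 genes with higher antisense signal in the double deletion, 363 were called higher in neither single deletion in the authors' deposited table, 96 in both, 112 in the xap5 deletion but not the pht1 deletion, and 228 the other way round. The 363 had median antisense folds of 0.64 and 0.66 in the xap5 and pht1 deletions and of 1.75 in the double deletion, so their single deletion folds were below those of the called genes but above 0. The double deletion fold exceeded both single deletion folds at 678 of the 799 genes, and by at least 1 at 220. The double deletion fold minus the sum of both single deletion folds had a median of -0.01, with quartiles of -0.58 and 0.53. These values describe genes chosen for a high double deletion fold, which raises that fold against the others. The comparisons share the wild type libraries, and the difference between double and single deletions has no test.

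The largest excess of the double deletion over the larger single deletion fold in the authors' deposited table was at glm1, of a kinetochore-associated family, with antisense folds of 0.74, 0.16 and 3.81 in the deletions of xap5, pht1 and both. SPAC26F1.11, listed as dubious, had 0.10, 0.97 and 4.00, SPCC191.10 had 2.51, 2.30 and 5.51, the predicted water channel SPAC977.17 had 0.10, 0.69 and 3.52, and the exosome-related cti1 had 1.00, 0.82 and 3.71. None of these 10 single deletion values was called in the deposited table, and all 5 double deletion values were.

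A smaller group of genes did not follow that order. Antisense was called higher at 106 genes in the pht1 deletion and in neither of the other strains in the authors' deposited table. Their median antisense fold was 1.49 in the pht1 deletion (quartiles 1.20 and 1.66) and 0.39 in the double deletion (quartiles 0.01 and 0.68), against 0.30 in the xap5 deletion. At all 106 the double deletion fold was below the pht1 deletion fold, at 27 it was below 0, and at none was it called lower. That the fold of 106 chosen genes is smaller where it was not called follows partly from the choice, and the difference between both strains has no test.

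The position of these 106 genes, which the choice did not use, differed from that of most other listed genes. The next protein-coding gene beyond the 3′ end was convergent at 93 of them (87.7%), against 2764 of 5039 protein-coding sense entries (54.9%) and 549 of 1039 listed protein-coding genes (52.8%). At 56 of them (52.8%) an annotated protein-coding gene overlapped on the opposite strand, against 37.7% of all genes, and the median distance to the next gene was -13.5 bases, an overlap, against 111 bases over all genes. The 5 genes higher in the xap5 and pht1 deletions but not in the double deletion were alike, with 5 convergent neighbours, 4 overlaps and a median distance of -90 bases. Overlaps go with convergent neighbours in general. Of 546 listed genes with a convergent neighbour in the sense table, 322 had an opposite-strand overlap. Whether overlap or distance sets the 106 genes apart beyond their orientation was not tested. The convergent share was 42.3% (47 of 111) among genes higher in the xap5 and double deletions, 45.4% (164 of 361) among those higher in the double deletion alone, 50% (47 of 94) among those higher in all 3 strains and 55.1% (125 of 227) among those higher in the pht1 and double deletions. Over whole comparisons it was 47.4% (109 of 230) for the xap5 deletion, 62.5% (270 of 432) for the pht1 deletion and 48.3% (383 of 793) for the double deletion.

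**Figure D2:**
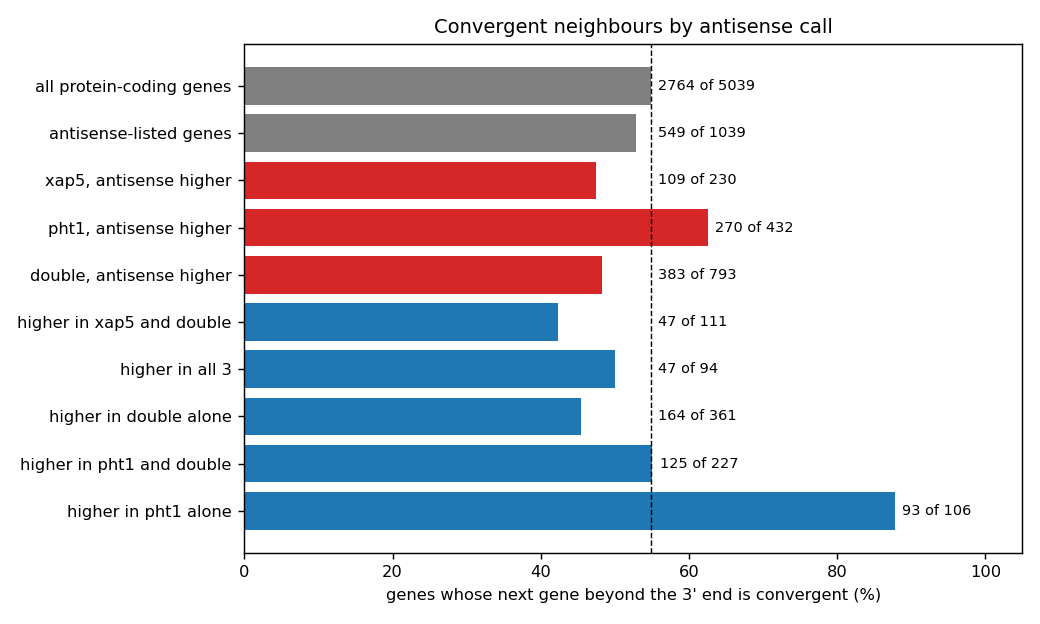
Percent of genes whose next protein-coding gene beyond the 3′ end is convergent, by antisense call, with counts beside the bars and a dashed line at the share of all protein-coding genes (54.9%). The bar for genes higher in the pht1 deletion alone reaches 87.7%, and the other bars lie between 42.3% and 62.5%. The 5 genes higher in the xap5 and pht1 deletions alone, all convergent, are not drawn.

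The neighbours of the 106 genes were seldom higher on their own sense strand. Of the 93 convergent neighbours, 8 were higher and 15 lower in sense signal in the pht1 deletion in the authors' deposited table, with a median sense fold of -0.06, beside 12.1% and 12.1% of all sense entries. In the double deletion 12 of them were higher and 50 lower, with a median of -0.35, beside 27.6% and 38% of all sense entries, and in the xap5 deletion 11 were higher and 31 lower, with a median of -0.14, beside 18.8% and 22.9%. The sense strand of the 106 genes themselves was higher at 10 and lower at 15 in the pht1 deletion, with a median of -0.10.

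The genes with the highest pht1 deletion folds of this group in the authors' deposited table were lto1, with 1.58 (not called), 2.69 and 0.44 (not called) in the deletions of xap5, pht1 and both, and tfb6, with -0.18, 2.60 and 1.53, of which only the second was called. The transcription factor gene zip1 overlaps its convergent neighbour, the meiotic gene rec10, by 36 bases, and had deposited antisense folds of 0.82, 2.47 and 0.35, called in the pht1 deletion (adjusted p = 8.69e-06). The sense fold of rec10 in the same deposited comparisons was 0.16, 0.53 and 0.21, called in the pht1 deletion (adjusted p = 0.00493). For rtc3 the antisense fold was 1.07, 2.53 and 0.97, called in the pht1 deletion, while its sense fold rose in all 3, by 3.15, 1.24 and 4.13. The sense folds of rtc3 thus followed another order than its antisense folds. All 4 are among the 6 highest pht1 deletion folds of the group and were picked after the values were seen. The other 2, ceo5 (2.60) and gid5 (2.48), have a tandem neighbour, and gid5 was lower in sense in the pht1 deletion (-0.64).

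In the xap5 and double deletions, higher antisense signal went with a higher sense fold of the convergent neighbour. Where the next gene was convergent and antisense was higher, the neighbour's sense signal was higher at 56 of 109 genes (51.4%) in the xap5 deletion and at 173 of 380 (45.5%) in the double deletion, per the authors' deposited tables. Where antisense was not higher, it was 91 of 437 (20.8%) and 23 of 166 (13.9%). In the pht1 deletion the same shares were 52 of 269 (19.3%) and 44 of 277 (15.9%). With a neighbour in the same direction (tandem), the shares were 24% and 21.9% in the xap5 deletion, 17.5% and 15.3% in the pht1 deletion, and 33.9% and 28.8% in the double deletion.

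The Spearman correlation between a gene's antisense fold and the sense fold of its convergent neighbour was 0.32, 0.21 and 0.35 in the deletions of xap5, pht1 and both, across 546 genes, and 0.09, 0.08 and 0.10 across 487 genes with a tandem neighbour. Both folds of a gene pair come from the same libraries, and overlapping transcripts can share reads, so the values describe these tables only. Pearson's r over the same convergent pairs was 0.38, 0.21 and 0.39. Without the genes that an annotated protein-coding gene overlaps, 224 convergent pairs remained, and Spearman's rho was 0.28, 0.18 and 0.28.

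**Figure D3:**
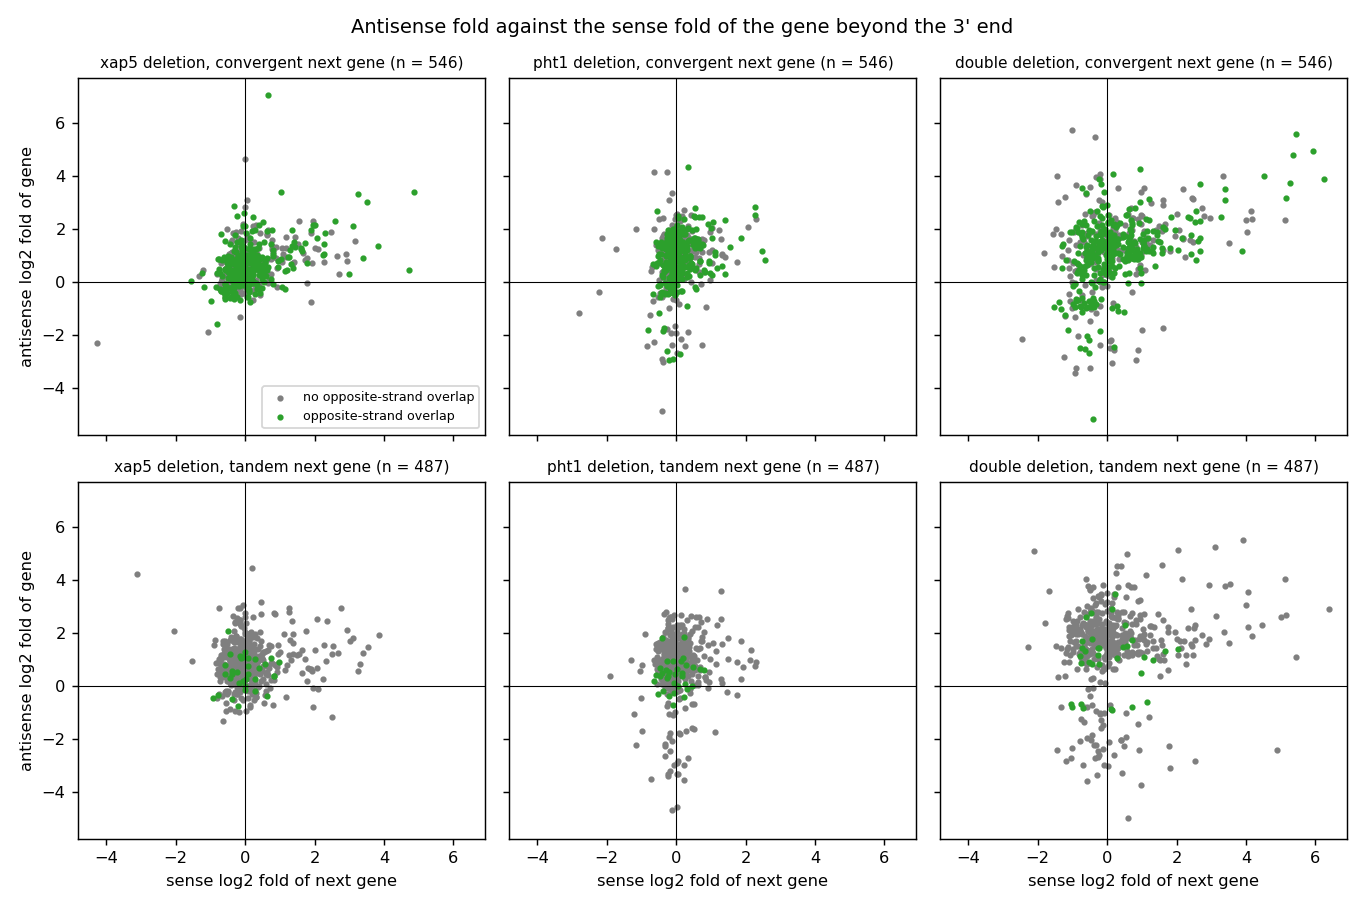
Deposited antisense log2 fold of each gene against the sense log2 fold of the next protein-coding gene beyond its 3′ end, for convergent (top) and tandem (bottom) neighbours in the 3 deletions, with green points for an annotated overlap on the opposite strand. Points with a strongly higher neighbour lie high on the antisense axis in the top panels of the xap5 and double deletions, where Spearman's rho is 0.32 and 0.35.

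Several pairs had nearly equal folds. The gene iss1, which encodes a Fip1-like subunit of the cleavage and polyadenylation complex, overlaps its convergent neighbour cum1 by 745 bases. Its antisense folds in the authors' deposited table were 3.01, 1.31 and 4.78 in the deletions of xap5, pht1 and both, and the sense folds of cum1 were 3.51, 1.56 and 5.36. The antisense folds of iss1 followed those of its neighbour in order and size, while its own sense fold was -0.19, -0.04 and -0.44, called lower in the double deletion alone.

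The dubious gene SPAC343.20 overlaps rds1 by 1712 bases, with antisense folds of 3.30, 2.53 and 5.56 beside sense folds of rds1 of 3.24, 2.27 and 5.45 in the authors' deposited tables. For rad26, which encodes the partner of the Rad3 checkpoint kinase, the antisense folds of 2.29, 0.47 and 2.28 stood beside sense folds of 2.59, 0.55 and 2.67 at atd1, an aldehyde dehydrogenase gene overlapping it by 90 bases. In the first pair the 3 deletions had the same order on both strands, and in the second the pht1 deletion was lowest on both while the other deletions differed by less than 0.1.

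Pairs without an overlap behaved alike in some cases. The actin-interacting bud6 had antisense folds of 2.28, 1.63 and 3.99, and SPAC15E1.02c, across the 293 bases shown above, had sense folds of 1.96, 1.29 and 3.34 in the authors' deposited tables, all called. The alcohol dehydrogenase gene adh1 had antisense folds of 0.16 (not called), 2.35 and 2.78, and its convergent neighbour SPCC13B11.02c, 512 bases away, had sense folds of 0.11, 2.31 and 2.74. The nickel transporter gene nic1 had antisense folds of 2.09, 0.50 (not called) and 4.00, beside 3.12, 1.19 and 4.52 for the sense strand of hsp3101, whose annotated end lies 339 bases away, though another annotated gene overlaps nic1 on the opposite strand. Other pairs did not match: hsp90 had an antisense fold of 3.09 in the xap5 deletion, and rlc1, across the 60 bases shown above, had a sense fold of 0.05 (not called). Likewise duc1 and pfl8, with antisense folds above 5 in the double deletion, had neighbours that were not higher: the sense fold of SPCC594.02c beyond duc1 fell by 0.36, and that of pdc101 beyond pfl8 fell by 1.02.

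In 58 convergent pairs both genes were listed for antisense signal. Antisense was higher at both genes in 6 of these pairs in the xap5 deletion, 14 in cells lacking pht1 alone and 29 in the double deletion, and cdc2 with pht1, a deleted gene, is such a pair in the last 2. Single listed genes were higher at shares of 22.3%, 41.6% and 76.5%, so some such pairs arise whatever the pairing. Whether the genes of a pair go together was not tested.

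Across all 1045 genes a gene's antisense fold said little about its own sense fold. The Spearman correlation between both was 0.003, -0.06 and -0.03 in the deletions of xap5, pht1 and both, as a description of values from the same libraries. The median sense log2 fold of the listed genes was -0.06, -0.08 and -0.16, beside -0.05, -0.04 and -0.12 over all sense entries outside SPNCRNA. Sense signal was higher at 202 listed genes (19.3%) and lower at 238 (22.8%) in the xap5 deletion in the authors' deposited table, beside 18.8% and 22.9% of all sense entries. It was higher at 119 (11.4%) and lower at 166 (15.9%) in the pht1 deletion, beside 12.1% and 12.1%, and higher at 290 (27.8%) and lower at 416 (39.8%) in the double deletion, beside 27.6% and 38%. At an adjusted p under 0.01 the listed genes with higher and lower sense signal were 167 and 179 (beside 14.8% and 16.9% of all entries), 81 and 98 (7.75% and 9.38%, beside 8.02% and 6.35%) and 260 and 359 (beside 24.3% and 32.5%). These shares were close to the background, and the largest gap was that of lower sense signal in the pht1 deletion.

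Genes with higher antisense signal showed the same. Of the 233 in the xap5 deletion, 41 (17.6%) were higher and 52 (22.3%) lower in sense, of the 435 in the pht1 deletion 39 (8.97%) and 82 (18.9%), and of the 799 in the double deletion 217 (27.2%) and 321 (40.2%) in the authors' deposited tables. In the pht1 deletion lower sense signal was thus more frequent among them than over all sense entries (12.1%), and higher sense signal less frequent (12.1%). With a log2 fold of at least 1 asked of both strands the balance turned, to 9 higher and 2 lower of 383 genes in the pht1 deletion, 26 and 2 of 199 in the xap5 deletion, and 73 and 46 of 740 in the double deletion. No test was made of these shares, since genes share neighbours and libraries.

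**Figure D4:**
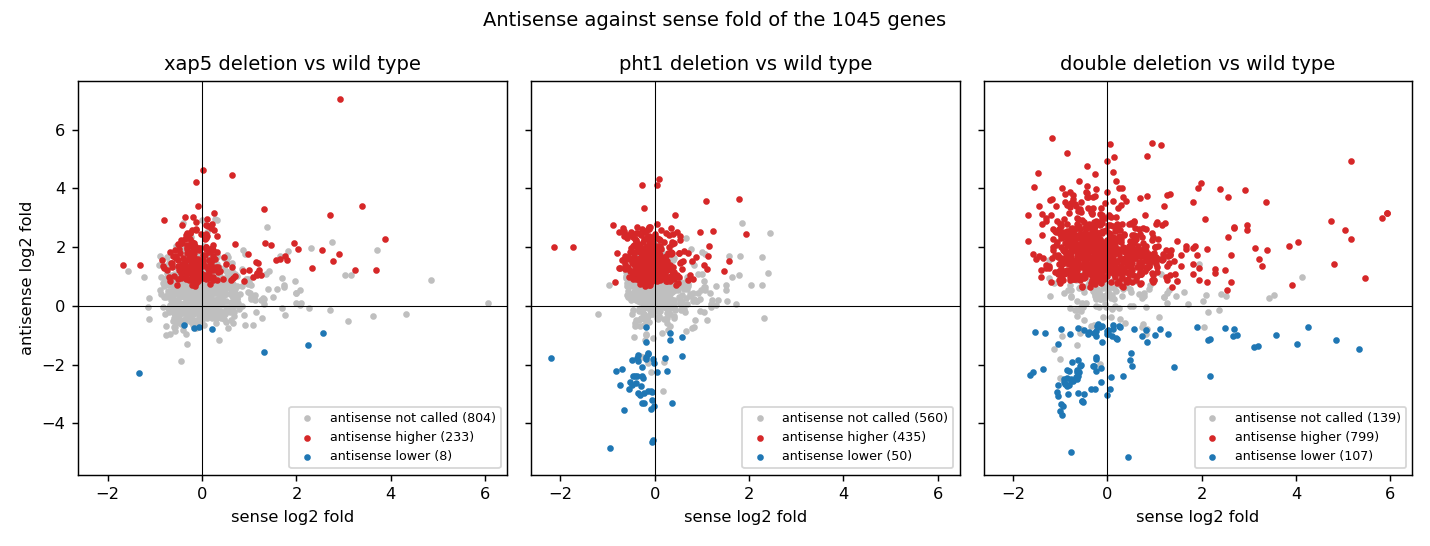
Deposited antisense log2 fold against sense log2 fold of the 1045 genes in each deletion, in red and blue where antisense was higher and lower, with the number of genes in each key. The red points spread to both sides of the zero sense line, and Spearman's rho is 0.003, -0.06 and -0.03.

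Among genes with antisense higher and sense lower, the widest gaps of the xap5 deletion in the authors' deposited tables were at noc201, a ribosome biogenesis gene, with an antisense fold of 2.93 and a sense fold of -0.81, at mas2, a mitochondrial processing peptidase subunit (3.04 and -0.36), and at SPBC16G5.17, a zinc cluster transcription factor (2.76 and -0.43). The iron transporter gene fet4 had the lowest sense fold of the 5 leading genes, -1.68, with an antisense fold of 1.38, and top3, for DNA topoisomerase III, had -0.32 and 2.48.

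In the pht1 deletion the widest gap was at pht1 itself, the deleted gene. After it came SPCC794.03, an amino acid permease, with an antisense fold of 2.01 and a sense fold of -1.73 in the authors' deposited tables, the mitochondrial exonuclease gene exo5 (2.77 and -0.89), the replication origin gene orc1 (2.65 and -0.68) and the cardiolipin synthase gene crd1 (2.51 and -0.76). In the double deletion crd1 had 3.47 and -0.69, and SPCC794.03 had 1.40 and -1.30, all called.

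In the double deletion the phosphoserine phosphatase gene ser2 had an antisense fold of 4.52 and a sense fold of -1.46 (adjusted p = 2.3e-29 in the authors' deposited sense table), beside pfl8, SPBC1685.04 (5.22 and -0.85), pht1 and iss1. For ser2 the sense fold was lower in all 3 deletions, at -0.89, -0.38 and -1.46, while antisense was called in the pht1 (2.67) and double deletions and not in the xap5 deletion (1.69).

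Other genes were higher on both strands. SPAC11D3.01c, a conserved fungal protein, had antisense folds of 2.29, 1.12 (not called) and 3.17 and sense folds of 3.87, 2.39 and 5.93 in the authors' deposited tables. SPBPB21E7.11 and SPBPB21E7.10 overlap each other by 601 bases and were both higher on both strands in the double deletion, with antisense folds of 4.92 and 3.16 and sense folds of 5.16 and 5.92. As SPBPB21E7.10 is 631 bases long, most of it lies in the overlap. Sense reads of one gene can thus count as antisense of the other, and the 4 folds are not separate observations. SPAC977.17 had antisense and sense folds of 3.52 and 3.37 in the double deletion. The Hsp90 chaperone gene hsp90 had an antisense fold of 3.09 and a sense fold of 2.72 in the xap5 deletion. Its antisense folds of -0.81 and 1.41 in the pht1 and double deletions were not called, while its sense fold of 1.95 in the double deletion was.

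Lower antisense signal was rare in the xap5 deletion, at 8 genes, of which 3 were higher and 2 lower in sense. The lowest folds were at the flavin oxidoreductase gene SPBC23G7.10c (-2.29, with a sense fold of -1.33), at sap1, for a switch-activating DNA-binding protein (-1.57, sense 1.31), at the Hsp70 gene ssa1 (-1.32, sense 2.24) and at the disaggregase gene hsp104 (-0.93, sense 2.56) in the authors' deposited tables. At ssa1 and hsp104 the double deletion had the same pattern, with antisense folds of -1.35 and -1.02 and sense folds of 3.19 and 2.65, all called. The gene beyond SPBC23G7.10c, 3118 bases away, is the mating-type gene mat1-Mc, with a sense fold of -4.27 in the xap5 deletion. Whether the antisense fold of SPBC23G7.10c goes with a difference in mating type was not tested. In the pht1 deletion the lowest folds were at the phosphatase gene SPBPB2B2.06c (-4.86), at nhp2 of the pseudouridylation snoRNPs (-4.65), at the ribosomal protein gene rps1001 (-4.56) and at the elongation factor gene tef103 (-3.54), which has near-identical copies and is uncertain. In the double deletion they were at the small GTPase gene ypt71 (-5.14), at lsm5 of the U6 snRNP (-4.98), at rpl802 (-3.73) and at the initiation factor gene tif313 (-3.57).

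Of the 50 genes with lower antisense signal in the pht1 deletion, 20 carry words of ribosome and translation, and 23 of the 107 in the double deletion do. Of all 1045 listed genes, 70 carry such words, which are 13.9% of the 505 sense entries that do. In this group of 70, antisense signal was higher at 8, 22 and 39 genes and lower at 0, 20 and 23 in the deletions of xap5, pht1 and both in the authors' deposited table. The cytosolic ribosomal proteins, a subset chosen after the values were seen, were counted apart. Of 131 sense entries described as 40S or 60S ribosomal proteins, 13 are listed. Antisense was lower at 10 of the 13 in the pht1 deletion and at 12 in the double deletion, and called at none in the xap5 deletion. The shares lower over all 1045 listed genes were 4.78%, 10.2% and 0.766% in the same order. Each of the 13 reached the listing threshold only in the pht1 or double deletion, so these counts follow in part from the listing. The median antisense fold of the 13 was -0.30, -2.39 and -2.83 in the deletions of xap5, pht1 and both.

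The ribosomal protein gene rps601 had deposited antisense folds of -0.24 (not called), -3.50 and -2.41, with sense folds of -0.42, -0.08 (not called) and -0.66. For rps2502 the antisense folds were -0.29 (not called), -3.31 and -2.84 in the authors' deposited table. The exception was rps7, with 0.65 and 1.13, neither called, and 1.66, called higher in the double deletion. The sense strand of the 13 was lower at 5, 4 and 11 genes and higher at none, with medians of -0.32, -0.07 and -0.54, so the median antisense fold of the pht1 deletion was far below the sense fold. One of the 13, rpl1001, has a near-identical copy. The genes with lower antisense signal in the pht1 deletion had a median GC content of 40.9% and a median length of 1455 bases, against 36.8% and 1790 bases over all genes, and whether base composition or expression level moves these folds was not tested.

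Only 3 genes called in the xap5 deletion were called in the opposite direction in another strain, and each was higher in the xap5 deletion. Genes higher in the pht1 and lower in the double deletion numbered 0, and the reverse was not counted. The thiazole synthesis gene thi2 had antisense folds of 1.48, -1.77 and -0.91, all called, and sense folds of 1.18, -2.21 and -1.53 in the authors' deposited tables, so both strands took the same signs. The calcineurin-responsive transcription factor gene prz1 had antisense folds of 1.60, -1.76 and -0.95, of which the last was not called (adjusted p = 0.051 in the authors' deposited table). SPAC57A7.05 had 1.55, -0.49 (not called) and -0.70, while its sense fold was 1.81, 1.10 and 4.24. These genes were picked after the values were seen.

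By words in the deposited descriptions, 646 genes fell into at least 1 of 17 groups and 399 into none. In each of the 17 groups the median antisense fold was above 0 in all 3 comparisons, and highest in the double deletion. This follows in part from how genes came to be listed. At an adjusted p under 0.01, antisense was higher at 764 of the 1045 genes in the double deletion, against 156 and 331 in the xap5 and pht1 deletions. The listed share of a group ran from 13.9% for ribosome and translation (70 of 505 sense entries) to 28.0% for DNA repair and replication (23 of 82), against 20.5% overall. Transporters, with 59 of 213 (27.7%), folding and stress genes, with 19 of 71 (26.8%), and cytoskeleton and division genes, with 39 of 146 (26.7%), also lay above it. So did chromatin (24.1%), protein breakdown (22.8%), metabolic enzymes (21.7%) and kinases and phosphatases (21.1%).

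Of 23 DNA repair and replication genes, antisense was higher at 6, 9 and 19 in the deletions of xap5, pht1 and both in the authors' deposited table. Over all 1045 listed genes the shares were 22.3%, 41.6% and 76.5%, and neither this group nor those below were tested against them. The RecQ-type helicase gene hrq1 had antisense folds of 1.09, 2.29 and 2.95, all called, with sense folds of -0.14 (not called), -0.42 and -0.92. For mus7, which acts on stalled replication forks, they were 1.85, 1.91 and 3.56, all called, with sense folds of 0.32, -0.23 (not called) and 0.40. Higher antisense signal thus went with a lower sense fold in one and not in the other.

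Of 59 transporter genes, antisense was higher at 15, 26 and 52, and the sense strand in the double deletion was higher at 20 and lower at 21 in the authors' deposited tables. The triose phosphate transporter gene pet3 had antisense folds of 1.38 (not called), 2.15 and 3.17 and a sense fold of -0.82 in the double deletion. Of 28 chromatin genes antisense was higher at 9, 14 and 21. For swr1, the ATPase that places H2A.Z, the deposited antisense fold was 2.49, 1.21 and 2.05, all called, and the sense fold of -0.26, -0.12 and -0.13 was not called in any of the 3. The histone demethylase gene jmj2 had antisense folds of 1.51 (not called), 2.28 and 2.82.

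Of 26 RNA processing genes, antisense was higher at 7, 6 and 21 in the authors' deposited table, with the highest median of the 17 groups in the double deletion, 1.96. The polyadenylation factor gene yth1 had antisense folds of 2.57, 1.58 (not called) and 2.87. Of 47 genes with mitochondrial words, antisense was higher at 12, 24 and 34, among them the inner membrane protease gene yme1, with 2.58, 1.95 and 3.88 and sense folds of -0.22, 0.14 and -0.00, none called. Of 39 genes with words of cytoskeleton and division, it was higher at 12, 16 and 34, and the kinetochore gene spc7 had 1.10 (not called), 2.21 and 3.21. Matching was by letters, so that actin also took in words such as interacting. With matches at word starts only, that group held 32 genes, of which 11, 11 and 28 were higher.

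The ribosome and translation group had the lowest median antisense fold of the double deletion, 1.16, and the lowest median sense folds, -0.34, -0.15 and -0.65. The same sense medians over all 505 entries of that group were -0.32, -0.08 and -0.56. Of its 39 genes with higher antisense signal in the double deletion, 30 were lower in sense in the authors' deposited table, a share close to that of the whole listed group, 53 of 70. Among them the ribosome assembly gene utp15 had antisense folds of 2.13, 1.54 and 3.39 and sense folds of -0.43, -0.02 (not called) and -0.66. Of the 19 listed folding and stress genes, 8, 4 and 10 were higher and 2, 1 and 4 lower in sense, with medians of 0.15, 0.09 and 0.52, while the medians over all 71 entries of that group were 0.01, 0.01 and -0.03. Their antisense signal was higher at 6, 3 and 12. The stress response gene bis1 had antisense folds of 1.49, 2.45 and 2.81 and sense folds of 1.15, 0.39 (not called) and 1.23.

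**Figure D5:**
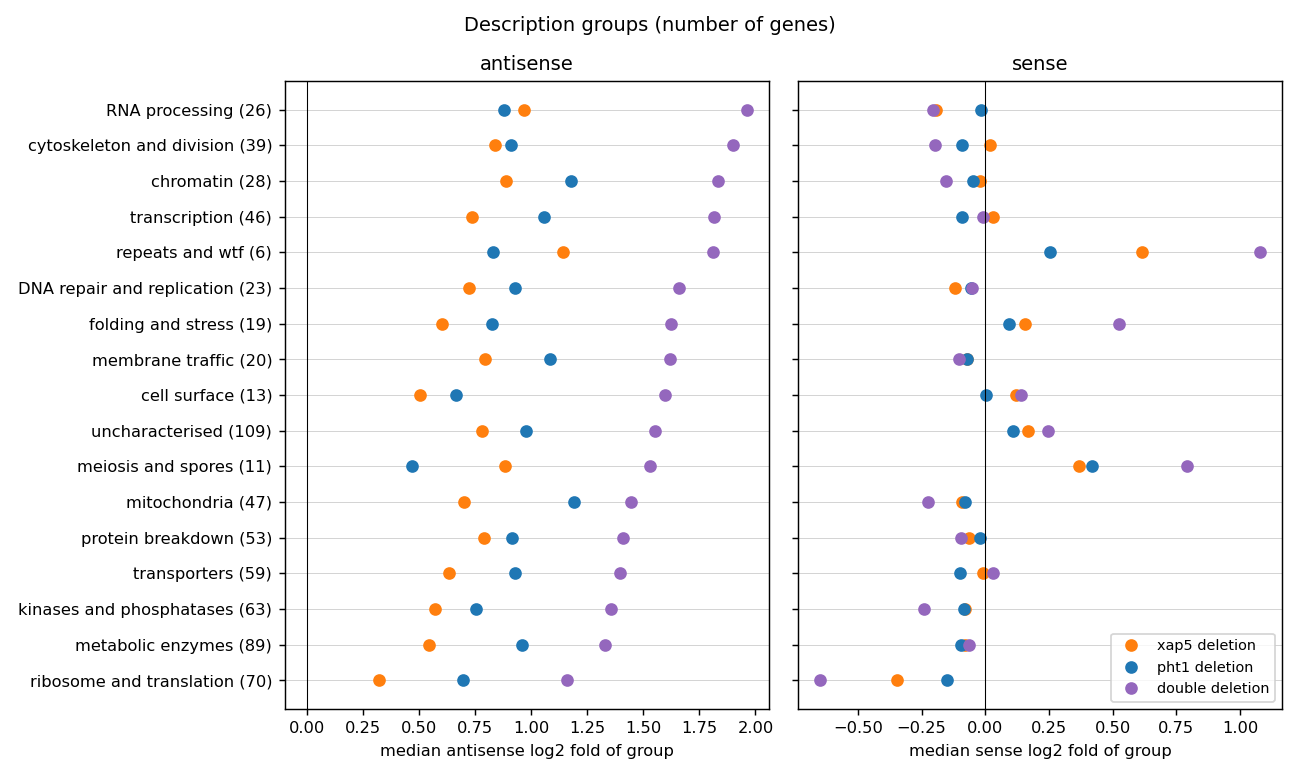
Median deposited antisense (left) and sense (right) log2 fold of the listed genes of each of the 17 description groups in the 3 deletions, with the number of genes after each name. All antisense medians lie above 0, with 1.16 (ribosome and translation) to 1.96 (RNA processing) in the double deletion, while the sense medians lie on both sides of 0.

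A list of 38 names of factors known to limit antisense or cryptic transcripts, among them exosome subunits, histone deacetylases, chaperones and heterochromatin and RNA interference genes, held 37 that matched a sense entry. The name xrn1 found no match, and whether another listed name stands for the same gene was not checked. The sense signal of the 37 factors was lower at 13 and higher at 1 in the xap5 deletion, lower at 9 and higher at 2 in the pht1 deletion, and lower at 23 and higher at 2 in the double deletion, per the authors' deposited table. The shares of all sense entries lower and higher were 22.9% and 18.8%, 12.1% and 12.1%, and 38% and 27.6% in the same order of strains. The median sense folds of the factors were -0.22, -0.20 and -0.39, against -0.05, -0.04 and -0.12 over all sense entries. In the xap5 and double deletions the lowest were those of mmi1, which directs meiotic transcripts to decay, at -0.77 and -1.03, with -0.19 (not called) in the pht1 deletion.

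The RNA interference and heterochromatin genes rdp1, dcr1 and clr4 were lower in the pht1 deletion and not in the double deletion, and were picked from the list after the values were seen. Others of the same kind differed: ago1 was not called in either (-0.24 and 0.09), swi6 was lower in the double but not the pht1 deletion (-0.49 and -0.11), and clr3 was lower in both (-0.39 and -0.49). The sense fold of rdp1, the RNA-dependent RNA polymerase gene, was 0.23 (not called), -0.84 and 0.10 (not called) in the deletions of xap5, pht1 and both in the authors' deposited table. For dcr1, the Dicer gene, it was 0.01, -0.44 and 0.24, called in the pht1 deletion alone, and for clr4, the histone H3 lysine methyltransferase gene, it was 0.28, -0.48 and 0.26, called in all 3. Of the 37 factors, 14 are themselves listed for antisense signal, among them rdp1 (-0.24, 0.81 and -0.10, called in the pht1 deletion), dcr1 (0.49, 0.79 and 2.20, called in the double deletion), the exosome nuclease gene dis3 (0.32, 1.87 and 1.89, called in the last 2) and spt16, of the histone chaperone FACT (1.79, 1.92 and 2.07, all called).

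In their annotated features the listed genes were longer than the others, with a median of 2194 bases against 1699.5 bases for genes that are not listed. Genes without a coding intron made up 59.1% of them, against 53.0% of all genes. They did not stand apart in GC content (37.2% against 36.8%), in a convergent neighbour (52.8% against 54.9%) or in chromosome, with 45.0%, 36.8% and 18.2% on chromosomes I, II and III against 45.6%, 36.5% and 17.9%. The letters TATAAA on the sense strand lay in the 200 bases before the annotated start of 22.0% of them and of 22.7% of all genes. On the antisense strand within 150 bases on each side of the annotated 3′ end they lay at 38.3% and 37.7%. An annotated noncoding RNA lay on the opposite strand at 3.75% of the listed genes and 3.27% of all genes. Longer genes offer more bases to antisense reads, and the part of length in the listing was not tested.

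The spaces next to these genes were read from the authors' deposited table of intergenic regions, which gives no strand. At the 3′ side, 3.41% of 469 regions were higher in the xap5 deletion, 2.56% in cells lacking pht1 alone and 17.1% in the double deletion, against 1.84%, 2.22% and 14.3% of 1576 regions beside genes that are not listed, and 2.65%, 1.65% and 15% of all 6121 regions. At the 5′ side the shares were 4.98%, 2.71% and 27.6% of 442 regions, against 4.58%, 2.39% and 22.5% of 1420 regions. Regions beside listed genes were thus higher somewhat more frequently, with no test of the difference, and 1 region can touch a listed gene on either side.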

How the data were processed

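The authors deposited tables of their own comparisons of each deletion with wild type: log2 fold changes, p-values and adjusted p-values per feature. The log base is not in the deposited headers and is taken as 2, as edgeR writes it. The submitters' processing notes name edgeR and BWA 0.5.8c without roles. The antisense table names annotation EF2.12, per the file headers. The adjusted p-values correspond to about 5395, 5365 and 5368 antisense tests. No values per library were used, so no test, interval or depth per library is given. Here, with Python 3.11.15, genes were matched by identifier, counted at a deposited adjusted p under 0.05, and placed on the RefSeq assembly ASM294v3 by locus tag. A near-identical copy means at least 95% identity over at least 50% of a gene, found with BLAST 2.17.0. Sense folds above 20 in either direction were left out of medians. Genes were named by fold rank within call classes and description groups, and otherwise said to be picked afterwards. The members and lists were chosen with earlier results of these data known. Alternatives were an adjusted p under 0.01, a log2 fold of at least 1, and subsets of genes. Counting was tested on simulated data.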

Additional observations from a re-analysis of the deposited data

How the results depend on the processing

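No paired analysis was possible because the deposited tables hold no values per library, and leaving out single libraries could not be run for the same reason. Of the 18 shares of calls, all 18 stayed within 1.5 times under each of 3 gene subsets (same-case identifiers, protein-coding genes only, no overlap on the opposite strand). At an adjusted p under 0.01, 15 of 18 did, and 3 moved: lower antisense in the xap5 deletion to 0.383%, lower sense in the pht1 deletion to 9.38%, and higher sense among genes with higher antisense in the pht1 deletion to 5.44%. A log2 fold of at least 1 moved 12 of 18, by its own construction, since most sense folds are smaller. Lower antisense in the xap5 deletion became 0.287%. Sense became higher at 7.18%, 3.83% and 11.9% and lower at 0.766%, 0.383% and 6.22% in the xap5, pht1 and double deletions. So lower sense calls outnumbered higher ones in all 3 deletions without this minimum, and higher ones outnumbered lower ones with it. Among genes with higher antisense, where the same turn occurred, sense became lower at 1.01%, 0.522% and 6.22%, and higher at 2.35% in the pht1 and 9.86% in the double deletion. Alternatives added after seeing the data left the convergent share at 45.8%, 69.2% and 47.2% with an adjusted p under 0.01, and the neighbour correlation without overlaps at 0.278 (xap5) and 0.279 (double). No depth per library was used, so a gene without a call may have had too few antisense reads to give one.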
